A study of Meriones unguiculatus with 18 samples.

Results

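Genes for RNA splicing and RNA-binding factors were examined in the liver of male Mongolian gerbils (Meriones unguiculatus) kept on a high-fat diet (HFD) or a normal diet (ND). The genes were those whose name begins as that of an SF3A or SF3B subunit, SF1, an SR protein (SRSF, SRRM), a heterogeneous nuclear ribonucleoprotein (HNRNP), an Sm, snRNP, LSm or PRPF protein, or a U2AF subunit. Names of the U2SURP, numbered RBM, DDX and DHX, CPSF, PABP, PCBP and LUC7L families were also taken. The rule found 45 names on 57 unigenes, a unigene being the longest transcript of an assembled cluster, out of 13172 unigenes of which 3767 had a name. For each name the unigene with the highest mean was used. Of the 45 genes, 43 had a mean of at least 1 over the 12 libraries used and were tested, and 40 of those were above the lowest value in every library. SRSF6 (mean 0.643) and PABPC1-B (mean 0.569) were below the filter, and HNRNPA0 (mean 1.002) lay just above it.

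The groups compared were HFD for 4 weeks (HFD 4W), ND for 4 weeks (ND 4W), HFD for 16 weeks (HFD 16W) and ND for 16 weeks (ND 16W), with 3 libraries each. All animals carried the strain label Z:ZCAL and were male, with no allele or agent beyond the diet named. Their age is not stated. HFD was ordinary feed at 80.5% with egg yolk powder at 10%, an ingredient given as "lard bile" at 7%, cholesterol at 2% and a bile salt at 0.5%. The labels speak in one place of 36 gerbils and in another of 18, so animals may have been pooled. The p-values therefore measure the spread between libraries.

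Introns are removed from pre-mRNA by the spliceosome, which is built from small nuclear RNAs and their proteins. Sm and LSm rings hold these RNAs, the U2 particle and U2AF mark the branch site and the 3′ splice site, and RNA helicases of the DDX and DHX families drive the rearrangements. SR and hnRNP proteins bind exons and introns and set which exons are kept. Cleavage and polyadenylation factors then end the mRNA, and poly(A)-binding proteins coat its tail. In liver, such factors act among others on mRNAs of lipid metabolism.

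Values are the authors' normalized expression levels. All libraries shared nearly the same sorted values (sums of 157561 to 158005, highest value 28763.5), so a level reflects a unigene's rank in its library, and sequencing depth is unknown. Pearson's r across unigenes was 0.771 to 0.858 between libraries of 1 group, whereas 8-week libraries had r of 0.00114 to 0.0320 with the others and were left out. A set of 33 unigenes with fly-style ribosomal protein or mitochondrial names, none of them a gene examined here, was above the lowest value in 32 or 33 cases in the HFD libraries numbered 2 and 3, and in 0 cases in the HFD libraries numbered 1 and in every ND library. HFD 4W 1 also correlated less with its own group (r of 0.771 and 0.783) than HFD 4W 2 and 3 did with each other (0.842). In the HFD libraries numbered 2 and 3 the diet and this set of unigenes cannot be told apart, whereas those numbered 1 lack the set as ND does. The change from 4 to 16 weeks within HFD is balanced over both kinds. Counts are given below with and without the HFD libraries numbered 1. Of 10 hepatocyte markers, ALB, APOA2, CPS1 and ASS1 were the 4 in the table. ALB, CPS1 and ASS1 were at 211.65 or more in every library. APOA2 was 0 to 10.3 in HFD 4W and 0 to 6.05 in HFD 16W. In ND it was 0.0236 to 0.141 at 4 weeks and 0.04 to 0.0733 at 16 weeks, in the range of the lowest values of those libraries.

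At 4 weeks most called splicing and RNA-binding genes were lower in HFD livers. By limma with Benjamini-Hochberg adjustment over all 9487 unigenes tested, 2 of the 43 genes were higher in HFD than in ND at an adjusted p under 0.05, and 12 were lower. Among all unigenes 12.1% were called, with 4.89% higher and 7.22% lower, and among named unigenes 11.7% were lower. Of the 40 genes above the lowest value in every library, which leaves out HNRNPA0, 2 were higher and 11 lower. Among all such unigenes 7.23% were higher and 9.03% lower. The median log2 fold change, HFD over ND on the scale of log2(value + 1), was −0.19 for the 43 genes and −0.03 for all unigenes. Without the HFD libraries numbered 1, the counts were 1 higher and 10 lower, against 7.07% and 6.46% of all unigenes. The number higher was 1 without HFD 4W 1, HFD 4W 3, ND 4W 1 or ND 4W 3, and 4 without ND 4W 2. In these fits 2.72% to 6.3% of all unigenes were higher. All 3 HFD values lay above all 3 ND values for 5 genes and below them for 17, against 11.9% and 19.2% of all unigenes, and the groups overlapped for 21.

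At 16 weeks the calls went both ways. In HFD livers 11 genes were higher and 8 lower than in ND livers, against 15.3% and 19.9% of all unigenes (35.2% in either direction). The share called higher was 25.6% of the 43 genes, near the 25.1% of named unigenes, and the share called lower was 18.6%. Of the 40 genes above the lowest value in every library, which leaves out HNRNPA0, 11 were higher and 7 lower. Among all such unigenes 22.2% were higher and 27% lower. The median log2 fold change was 0.03 for the 43 genes and −0.12 for all unigenes. Leaving out the HFD libraries numbered 1 gave 8 higher and 8 lower, against 15.8% and 18.1% of all unigenes. Without ND 16W 2 the number higher was 7 (13.5% of all unigenes), and without ND 16W 1 the number lower was 4 (16.4%). All 3 HFD values lay above all 3 ND values for 14 genes and below them for 13, against 20.4% and 28.2% of all unigenes.

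A median-ratio rescaling of the libraries moved the median over all unigenes by more than 0.1. It went to 0.10, in place of −0.03, at 4 weeks and to 0.01, in place of −0.12, at 16 weeks. On that scale 597 unigenes were higher and 505 lower at 4 weeks, in place of 464 and 685. At 16 weeks 1738 were higher and 1723 lower, in place of 1451 and 1889. Among the splicing and RNA-binding genes the rescaled counts were 6 higher and 9 lower at 4 weeks and 12 higher and 5 lower at 16 weeks. Genes whose call changed with the scaling are named as they are described.

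**Figure D1:**
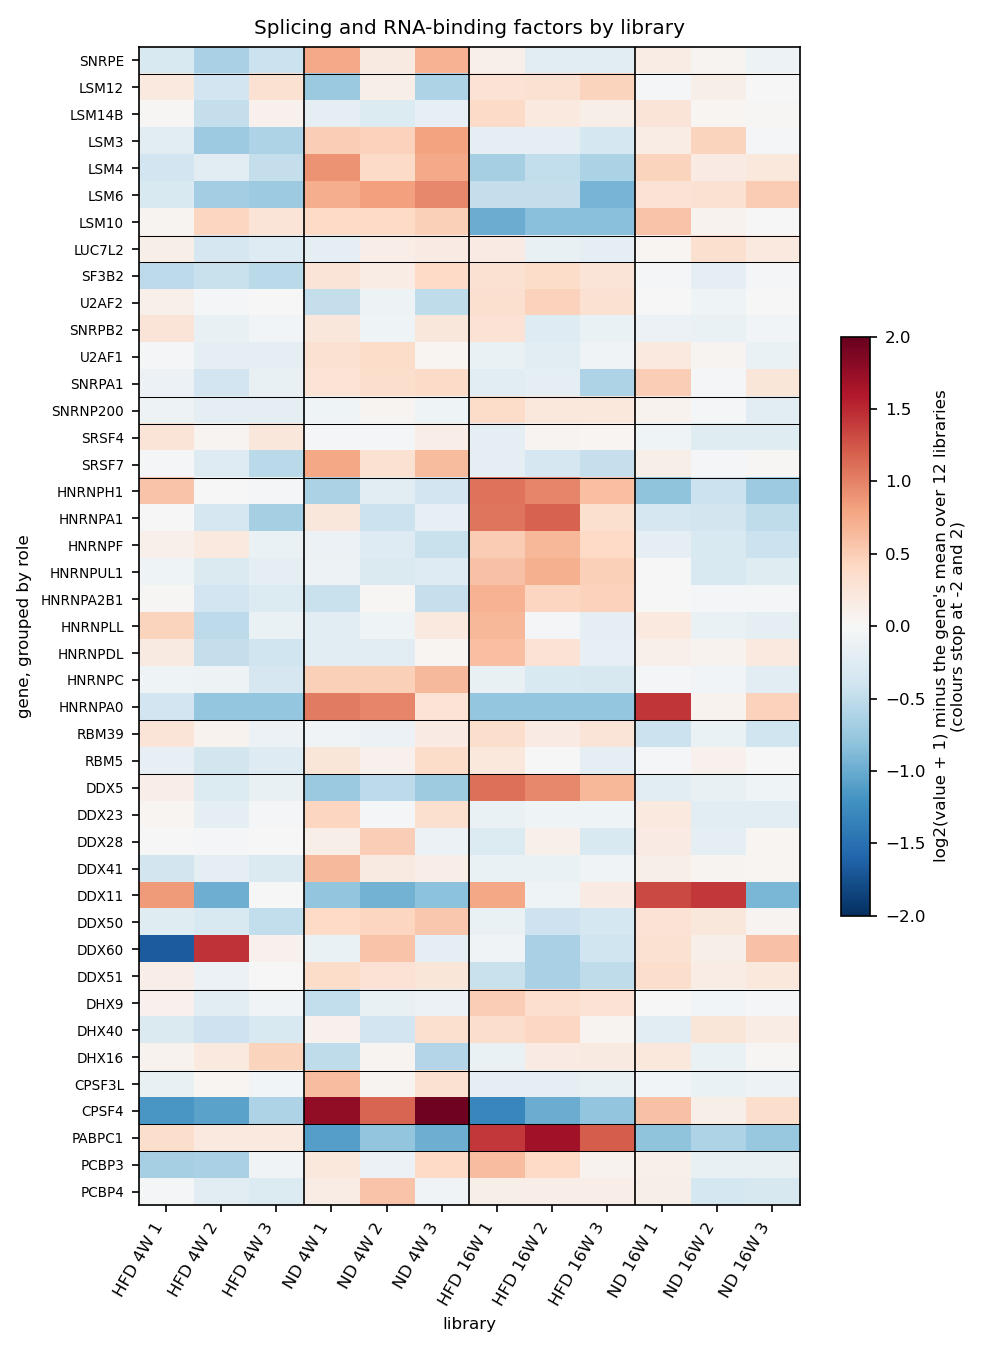
Level of each of the 43 tested genes in the 12 libraries, as log2(value + 1) minus the gene's own mean over the 12 libraries, with genes in blocks by role and libraries in blocks by group (HFD 4W, ND 4W, HFD 16W, ND 16W, from left). Most hnRNP rows and PABPC1 and DDX5 are reddest in HFD 16W, CPSF4 is reddest in ND 4W, and the colours stop at −2 and 2.

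**Figure D2:**
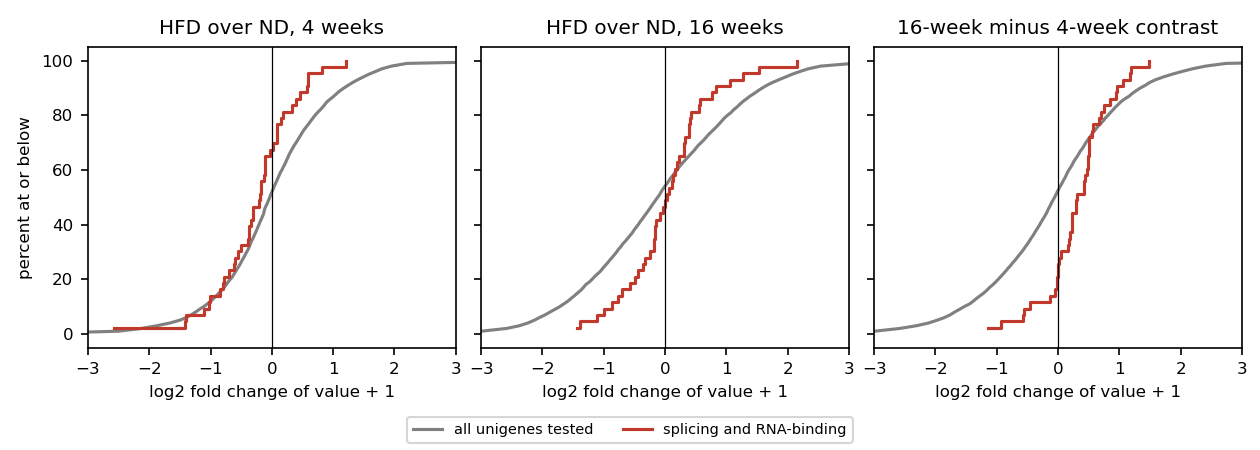
Cumulative percent of genes at or below each log2 fold change, for all 9487 unigenes tested (grey) and the 43 splicing and RNA-binding genes (red), for the HFD over ND contrast at 4 weeks, the same at 16 weeks, and the 16-week minus the 4-week contrast; the axis shows −3 to 3. The red line crosses 0 at 67.4%, 46.5% and 23.3%, and the grey line at 52%, 54.1% and 52.6%.

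The Sm and LSm ring proteins held lower calls and no higher one in HFD livers. SNRPE, the E protein of the Sm ring, was 61.8, 48.7 and 56.8 in HFD 4W libraries 1 to 3, against 130, 86.7 and 125 in ND 4W. Every HFD library was below every ND library, with a log2 fold change of −1.002 (SE 0.18, adjusted p = 0.00388). At 16 weeks its levels were 82.2, 64.9 and 65.4 in HFD and 84.6, 79.1 and 71.1 in ND, which overlapped (log2 fold change −0.15, adjusted p = 0.546). The difference between the contrasts of SNRPE at the 2 times was 0.85 and did not pass the test (adjusted p = 0.0541). It was called on the rescaled values (0.82, adjusted p = 0.0381), with a term for the HFD libraries numbered 1 (adjusted p = 0.0422) and without ND 4W 2 (1.04, adjusted p = 0.0169), and was not called without the HFD libraries numbered 1 (adjusted p = 0.131).

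LSM3, LSM4 and LSM6 are subunits of both the nuclear LSm ring on U6 RNA and the cytoplasmic ring that promotes mRNA decapping. LSM6 was 5.91, 4.25 and 4.18 in HFD 4W, against 13.1, 14.1 and 15.6 in ND 4W. At 16 weeks it was 5.12, 5.14 and 3.49 in HFD and 9.397, 9.59 and 11.1 in ND. At both times the groups were apart, with log2 fold changes of −1.41 (SE 0.18, adjusted p = 0.00057) at 4 weeks and −0.995 (SE 0.18, adjusted p = 0.00135) at 16 weeks. LSM4 was 9.34, 10.7 and 8.71 in HFD 4W against 24.1, 16.6 and 21.8 in ND 4W, and 7.48, 8.62 and 7.73 in HFD 16W against 17.3, 14.2 and 14.7 in ND 16W. The groups were again apart, with changes of −1.03 (adjusted p = 0.00174) and −0.87 (adjusted p = 0.00145). LSM3 was 18.7, 12.8 and 13.999 in HFD 4W, against 31.3, 30.5 and 38.8 in ND 4W (log2 fold change −1.10, adjusted p = 0.00189). At 16 weeks LSM3 stood at 19.0, 19.0 and 16.9 in HFD and 24.5, 30.01 and 21.2 in ND. These groups did not overlap either, but the change of −0.43 did not pass the test (adjusted p = 0.0729).

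The other LSm proteins went their own ways. LSM10, a subunit of the U7 particle that processes the ends of histone mRNAs, was 13.1, 17.4 and 15.3 in HFD 4W and 17.0, 17.0 and 18.1 in ND 4W, which overlapped. At 16 weeks it was 5.86, 6.63 and 6.64 in HFD, against 19.3, 13.3 and 12.7 in ND. The 16-week log2 fold change of LSM10 was −1.10 (SE 0.17, adjusted p = 0.000451), and the 4-week one −0.18 (adjusted p = 0.553). LSM12 had log2 fold changes of 0.45 at 4 weeks and 0.32 at 16 weeks, and LSM14B, a protein of RNA granules, 0.08 and 0.12, none of them called. Over the 6 LSm genes the median was −0.60 at 4 weeks and −0.65 at 16 weeks, with 3 lower and 0 higher at each time. The shares called lower were 7.22% of all and 11.7% of named unigenes at 4 weeks, and 19.9% and 24.7% at 16 weeks.

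Among the proteins of the U2 particle and the 3′ splice site, SF3B2 differed from all other genes examined in being called in opposite directions at the 2 times. SF3B2 is a subunit of the SF3b complex that binds next to the branch site. Its levels were 16.3, 17.4 and 16.3 in HFD 4W, against 29.0, 26.8 and 32.0 in ND 4W. At 16 weeks they were 30.1, 31.3 and 29.0 in HFD, against 23.4, 21.0 and 23.5 in ND. No library overlapped at either time, with HFD below ND at 4 weeks (log2 fold change −0.77, SE 0.11, adjusted p = 0.0013) and above it at 16 weeks (0.40, SE 0.11, adjusted p = 0.0172). The 16-week call was lost without ND 16W 2 (adjusted p = 0.0633), with each time fitted alone (0.0529) and with a variance fitted without a trend (0.119).

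U2AF2, the large U2AF subunit that binds the polypyrimidine tract, was 48.7, 44.7 and 45.1 in HFD 4W and 32.2, 42.1 and 31.6 in ND 4W. At 16 weeks it was 57.0, 63.0 and 56.2 in HFD and 45.8, 42.7 and 45.6 in ND. The HFD values were above the ND values at both times, by 0.39 (adjusted p = 0.0792) at 4 weeks and 0.39 (SE 0.13, adjusted p = 0.039) at 16 weeks. On the rescaled values the 4-week contrast was called too (0.58, adjusted p = 0.0203). The 16-week call was lost without HFD 4W 2 (adjusted p = 0.0526), HFD 4W 3 (0.053), HFD 16W 1 (0.0667), HFD 16W 2 (0.107), HFD 16W 3 (0.0574), ND 16W 1 (0.0652), ND 16W 2 (0.107) or ND 16W 3 (0.0775). Without ND 4W 2 the 4-week contrast was called (0.52, adjusted p = 0.0219).

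SNRPA1, a protein bound to the U2 RNA, was 8.45, 8.77 and 6.26 in HFD 16W against 14.5, 9.78 and 12.1 in ND 16W (log2 fold change −0.57, SE 0.17, adjusted p = 0.0233). The groups did not touch, but the call was lost without HFD 16W 3 (adjusted p = 0.0892), ND 16W 1 (0.0872) or ND 16W 3 (0.0613), and on the rescaled values (0.0593). At 4 weeks SNRPA1 was 9.20, 7.47 and 8.99 in HFD and 12.5, 13.1 and 13.4 in ND, a change of −0.56 that did not pass (adjusted p = 0.0583). That contrast was called without HFD 16W 3 (adjusted p = 0.0466) or ND 16W 1 (0.0493), since all groups share one estimate of the spread. SNRPB2, its partner in the U2 particle, had log2 fold changes of −0.11 and 0.07, and U2AF1, the small U2AF subunit that reads the end of the intron, −0.38 (adjusted p = 0.0999) and −0.18 (adjusted p = 0.321).

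No call was made in the diet contrasts for the single genes of the U1 and tri-snRNP groups. LUC7L2, a U1-associated protein, had log2 fold changes of −0.19 at 4 weeks and −0.24 at 16 weeks. SNRNP200, the helicase that unwinds the paired U4 and U6 RNAs, was 23.3, 20.9 and 20.8 in HFD 16W against 18.7, 17.5 and 15.4 in ND 16W. Its groups were apart with a change of 0.32 (SE 0.12, adjusted p = 0.0567), which was called without ND 16W 1 (0.38, adjusted p = 0.0464) and on the rescaled values (0.47, adjusted p = 0.00677). SRSF7, an SR protein that promotes exon inclusion, was 8.13, 6.73 and 5.35 in HFD 4W, against 14.9, 10.4 and 13.3 in ND 4W (log2 fold change −0.84, SE 0.18, adjusted p = 0.00997). HFD 16W levels of SRSF7 were 7.13, 6.30 and 5.72, against 9.07, 7.95 and 8.36 in ND 16W, with no overlap and a change of −0.36 (adjusted p = 0.14). SRSF4, another SR protein, had changes of 0.15 and 0.16, neither called. SRSF6, below the filter, was 0.226, 0.742 and 2.77 in HFD 4W and 0.168, 0.181 and 2.39 in HFD 16W, with 1 ND library (0.914 in ND 4W 3) above the lowest value.

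The hnRNPs were the role with the most higher calls at 16 weeks: 5 of the 9 tested were higher in HFD and 1 was lower. The shares then were 15.3% and 19.9% of all unigenes and 25.1% and 24.7% of named unigenes. The median log2 fold change of the 9 hnRNPs was 0.55. At 4 weeks 0 of the 9 were higher and 2 lower, with a median of −0.04, against 4.89% higher and 7.22% lower among all unigenes. HNRNPH1, which binds runs of G, was 85.4, 57.4 and 56.2 in HFD 4W and 36.4, 49.2 and 43.9 in ND 4W. At 16 weeks it was 122.6, 113 and 86.9 in HFD, against 32.2, 42.3 and 34.1 in ND. All HFD values exceeded all ND values at both times, by 0.59 (SE 0.20, adjusted p = 0.0815) at 4 weeks and 1.54 (SE 0.20, adjusted p = 0.000177) at 16 weeks. On the rescaled values the 4-week contrast of HNRNPH1 was also called (0.78, adjusted p = 0.0285).

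HNRNPA1, a repressor of exon inclusion, was 108, 116 and 64.2 in HFD 16W against 40.2, 39.1 and 35.4 in ND 16W, with HFD 16W 3 well below the other HFD libraries but still above all ND libraries. The log2 fold change was 1.27 (SE 0.25, adjusted p = 0.0021). At 4 weeks HNRNPA1 overlapped, at 51.0, 40.1 and 31.8 in HFD and 59.7, 37.7 and 45.6 in ND (−0.21, adjusted p = 0.639). HNRNPUL1, an RNA-binding protein with roles in transcription and DNA repair, was 25.4, 28.0 and 23.7 in HFD 16W against 16.8, 13.3 and 13.9 in ND 16W (0.77, SE 0.13, adjusted p = 0.000982). At 4 weeks its levels were 15.6, 13.5 and 14.4 in HFD and 15.5, 13.5 and 13.8 in ND, which overlapped (0.02, adjusted p = 0.947). HNRNPF, closely related to HNRNPH1, was 72.4, 80.7 and 67.4 in HFD 16W against 44.4, 41.1 and 37.3 in ND 16W, again apart (0.83, SE 0.14, adjusted p = 0.000935). At 4 weeks it was 54.7, 58.5 and 46.0 in HFD and 46.7, 42.4 and 37.1 in ND (0.33, adjusted p = 0.16), and the rescaled contrast of HNRNPF was called (0.52, adjusted p = 0.0393).

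HNRNPA2B1, a paralog of HNRNPA1, was 193, 160 and 164 in HFD 16W and 119, 116 and 116 in ND 16W (0.55, SE 0.17, adjusted p = 0.0257). Its groups did not overlap, but the call was lost without HFD 16W 1 (adjusted p = 0.0855), ND 16W 1 (0.0536), ND 16W 2 (0.0637) or ND 16W 3 (0.0653). At 4 weeks HNRNPA2B1 was 121, 91.2 and 98.7 in HFD and 86.9, 121 and 86.1 in ND (0.09, adjusted p = 0.801). HNRNPC, which binds U-rich tracts, went the other way at 4 weeks, at 34.4, 34.0 and 28.8 in HFD against 51.0, 51.0 and 58.1 in ND (−0.71, SE 0.12, adjusted p = 0.00353). At 16 weeks its groups overlapped, at 32.8, 29.4 and 29.2 in HFD and 36.0, 35.3 and 31.0 in ND (−0.16, adjusted p = 0.344). HNRNPDL (−0.11 and 0.12) and HNRNPLL (−0.04 and 0.19) were not called at either time.

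HNRNPA0, which binds AU-rich elements in mRNAs, was above the lowest value in all 6 ND libraries and in 1 of the 6 HFD libraries. It was 0.307, 0 and 0 in HFD 4W and 2.52, 2.36 and 1.06 in ND 4W, and listed at 0 in all 3 HFD 16W libraries against 3.62, 0.804 and 1.35 in ND 16W. It passed the filter on low values through the ND libraries, so a difference was built in. Its folds depend on the pseudocount and are not given. It is among the 12 lower calls at 4 weeks and the 8 at 16 weeks, where it is no measure of a diet change. After rescaling it was below the filter and had no test. The 4-week call was lost without HFD 4W 2 (adjusted p = 0.104), HFD 4W 3 (0.115), HFD 16W 1 (0.0538), HFD 16W 2 (0.0548) or HFD 16W 3 (0.0562).

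The RBM genes were a pair. RBM39, a splicing coactivator related to U2AF2, was 52.5, 46.0 and 49.2 in HFD 16W, against 30.01, 37.3 and 31.0 in ND 16W. The groups were apart at 16 weeks (log2 fold change 0.58, SE 0.14, adjusted p = 0.00862) and overlapped at 4 weeks, at 49.4, 43.1 and 37.6 in HFD and 38.9, 37.6 and 46.1 in ND (0.08, adjusted p = 0.78). The 16-week call of RBM39 was lost when the variance was fitted without a trend (adjusted p = 0.0509). RBM5, a regulator of the splicing of apoptosis genes, was 21.3, 18.3 and 19.8 in HFD 4W against 28.6, 25.5 and 31.1 in ND 4W (−0.50, SE 0.13, adjusted p = 0.0332). At 16 weeks RBM5 overlapped, at 27.9, 24.2 and 21.1 in HFD and 23.2, 25.6 and 24.0 in ND (0.00, adjusted p = 0.998). The 4-week call of RBM5 was lost without HFD 4W 2 (adjusted p = 0.109), HFD 4W 3 (0.091), ND 4W 1 (0.0879) or ND 4W 3 (0.11), and on the rescaled values (0.151).

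DDX5 was the helicase with the largest change at 16 weeks and the one DDX gene called higher. It encodes the helicase p68, which acts in splicing and as a coactivator of transcription. DDX5 was 94.6, 71.6 and 78.0 in HFD 4W against 51.3, 59.7 and 52.4 in ND 4W, and 187, 168 and 138 in HFD 16W against 74.2, 77.8 and 81.1 in ND 16W. The groups were apart at both times, with log2 fold changes of 0.56 (SE 0.15, adjusted p = 0.0342) and 1.06 (SE 0.15, adjusted p = 0.000341). Its 4-week call was lost without HFD 4W 1 (adjusted p = 0.105), HFD 4W 3 (0.0796), ND 4W 1 (0.107) or ND 4W 3 (0.097), with each time fitted alone (0.0532) and with no variance trend (0.117).

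The lower calls among the DDX helicases were of DDX50, DDX41 and DDX51. DDX50, a nucleolar helicase, was 9.25, 8.75 and 7.62 in HFD 4W against 14.9, 15.3 and 16.6 in ND 4W (−0.80, SE 0.14, adjusted p = 0.0033). It was 10.0, 8.07 and 8.496 in HFD 16W against 13.7, 13.1 and 11.5 in ND 16W (−0.48, adjusted p = 0.0178). Neither time showed overlap, and the 16-week call of DDX50 was lost without HFD 16W 2 (adjusted p = 0.0612), HFD 16W 3 (0.0514), ND 16W 1 (0.0565) or ND 16W 2 (0.0515), and on the rescaled values (0.0559). DDX41, which associates with the spliceosome, was 13.99, 15.9 and 14.8 in HFD 4W against 29.3, 21.0 and 20.3 in ND 4W (−0.61, SE 0.14, adjusted p = 0.0171). That call was lost without HFD 4W 3 (adjusted p = 0.0568) or ND 4W 1 (0.0586), and on the rescaled values (0.0888). At 16 weeks DDX41 had a change of −0.18 (adjusted p = 0.343).

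DDX51, a factor in ribosomal RNA processing, was 1.03, 0.766 and 0.956 in HFD 16W, against 2.53, 2.07 and 2.20 in ND 16W. The groups were apart, with a change of −0.77 (SE 0.22, adjusted p = 0.0191) on a low level where the pseudocount shrinks folds. Its call was lost without HFD 16W 2 (adjusted p = 0.0641) or ND 16W 1 (0.0566). DDX23 of the U5 particle, DDX28 of the mitochondrial ribosome pathway, the antiviral factor DDX60 and the DNA helicase DDX11 were not called. Their log2 fold changes at 4 and 16 weeks were −0.31 and −0.02 for DDX23, −0.17 and −0.17 for DDX28, −0.13 and −0.70 for DDX60, and 0.82 and −0.32 for DDX11. Of these, DDX11 was above the lowest value in 7 libraries and DDX60 in 11.

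DHX9, the RNA helicase A, was 19.5, 17.4 and 16.8 in HFD 16W against 13.6, 13.1 and 13.2 in ND 16W. These groups did not overlap, and the change of 0.40 (SE 0.14, adjusted p = 0.0461) lay at the edge of the threshold. It was lost without HFD 4W 2 (adjusted p = 0.0508), HFD 4W 3 (0.0612), HFD 16W 1 (0.133), HFD 16W 2 (0.0805), HFD 16W 3 (0.0637), ND 16W 1 (0.0771), ND 16W 2 (0.102) or ND 16W 3 (0.103). When the values of both DHX9 unigenes were summed, the adjusted p was 0.236. DHX16, a helicase that starts the first step of splicing, had changes of 0.59 (adjusted p = 0.0773) at 4 weeks and 0.03 at 16 weeks, and DHX40 had −0.35 and 0.22, none of them called. The 4-week contrast of DHX16 was called higher on the rescaled values (0.76, adjusted p = 0.0333), with a term for the HFD libraries numbered 1 (0.68, adjusted p = 0.0407) and without ND 4W 2 (0.78, adjusted p = 0.022).

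Genes that act at the poly(A) tail and its signal held the largest rise at both times (PABPC1) and the largest fall at 4 weeks (CPSF4). CPSF4, the zinc-finger subunit of the cleavage and polyadenylation complex that takes part in reading the poly(A) signal, was 26.8, 28.8 and 39.9 in HFD 4W against 212, 139 and 240 in ND 4W. At 16 weeks it was 24.2, 30.3 and 35.1 in HFD, against 93.2, 67.1 and 78.3 in ND. HFD was far below ND at both times, with log2 fold changes of −2.57 (SE 0.23, adjusted p = 7.55e-05) and −1.39 (SE 0.23, adjusted p = 0.000832). CPSF4 in ND was also the one gene examined that changed between the times within that diet. CPSF3L, an older symbol for INTS11 of the Integrator complex, had changes of −0.38 (adjusted p = 0.108) and −0.08 (adjusted p = 0.693).

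PABPC1, the main cytoplasmic poly(A)-binding protein, was 128, 115 and 115 in HFD 4W against 46.3, 57.4 and 50.4 in ND 4W. At 16 weeks it reached 267, 322 and 232 in HFD, against 57.0, 65.1 and 58.5 in ND. All HFD libraries exceeded all ND libraries at each time, with log2 fold changes of 1.20 (SE 0.15, adjusted p = 0.000534) and 2.15 (SE 0.15, adjusted p = 2.29e-06). Without the HFD libraries numbered 1 these were 1.15 (adjusted p = 0.00299) and 2.16 (adjusted p = 7.8e-05). The poly(C)-binding proteins PCBP3 (−0.63 at 4 weeks and 0.43 at 16 weeks) and PCBP4 (−0.39 and 0.32) were not called.

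**Figure D3:**
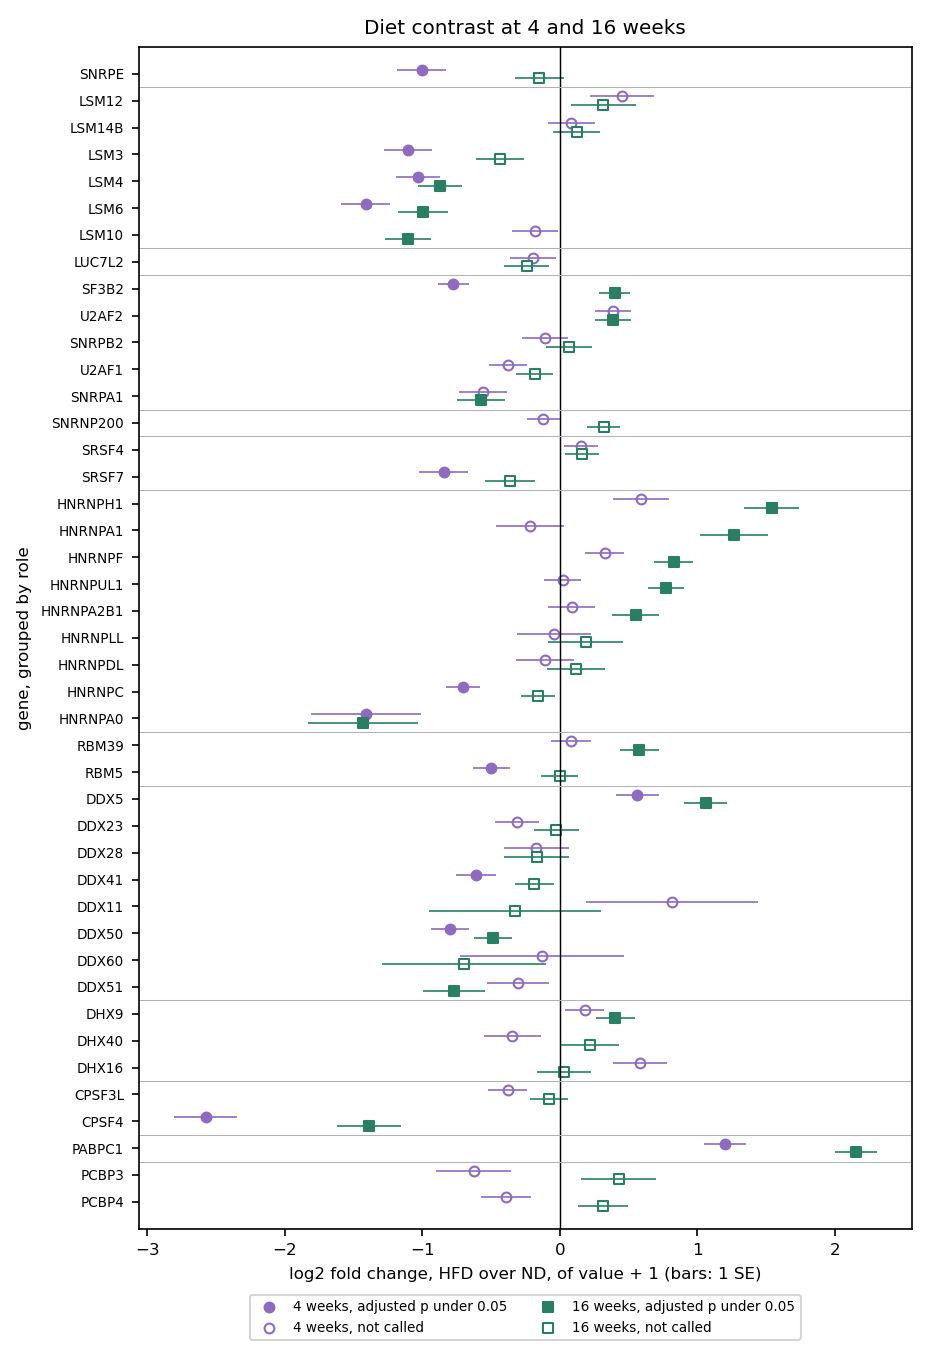
Log2 fold change, HFD over ND, of value + 1 for each of the 43 tested genes at 4 weeks (purple circles) and 16 weeks (green squares), with bars of 1 SE and filled symbols for an adjusted p under 0.05. CPSF4 lies at −2.57 and −1.39, PABPC1 at 1.20 and 2.15, and SF3B2 has filled symbols on both sides of 0.

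The diet contrast itself differed between the times for 6 of the 43 genes, 5 with a higher and 1 with a lower value at 16 weeks, against 5.5% and 4.61% of all unigenes (10.1% in either direction). Among named unigenes the shares were 11.4% and 7.12%, and among the 43 genes 11.6% and 2.33%. The median difference, 16-week minus 4-week contrast, was 0.32 for the 43 genes and −0.06 for all unigenes, and 33 of the genes had a positive one. SF3B2 had a contrast of 0.40 at 16 weeks and −0.77 at 4 weeks, a difference of 1.17 (SE 0.16, adjusted p = 0.00206), which no alternative removed (adjusted p of 0.000575 to 0.0215). HNRNPA1 differed by 1.48 (SE 0.35, adjusted p = 0.021), CPSF4 by 1.19 (SE 0.33, adjusted p = 0.0415), PABPC1 by 0.95 (SE 0.21, adjusted p = 0.0168), HNRNPUL1 by 0.75 (SE 0.19, adjusted p = 0.027) and LSM10 by −0.93 (SE 0.24, adjusted p = 0.03).

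These calls other than that of SF3B2 were less firm. Without the HFD libraries numbered 1, 1 of the 6 was called, and 4.91% of all unigenes were called in place of 10.1%. The adjusted p was then 0.0548 for PABPC1, 0.0532 for HNRNPA1, 0.0691 for HNRNPUL1, 0.0678 for LSM10 and 0.0916 for CPSF4, at differences of 1.01, 1.54, 0.81, −0.97 and 1.22. The number called was 3 without HFD 4W 2, HFD 4W 3, HFD 16W 1 or ND 16W 3, and 2 without ND 4W 1 or HFD 16W 2. It was 4 without ND 4W 3 or ND 16W 2. Across these fits without 1 library, 6.32% to 8.33% of all unigenes were called. PABPC1 kept its call without any single library. HNRNPA1 lost it without HFD 4W 3, ND 4W 1, HFD 16W 1, HFD 16W 2 or ND 16W 3 (adjusted p of 0.0507 to 0.0529). HNRNPUL1 lost it without HFD 4W 2, HFD 4W 3, ND 4W 1, HFD 16W 1, HFD 16W 2, ND 16W 2 or ND 16W 3 (0.0547 to 0.065). LSM10 lost it without HFD 4W 2, HFD 4W 3, any ND 4W library, HFD 16W 1 or HFD 16W 2 (0.053 to 0.0716), and CPSF4 without HFD 4W 1, HFD 4W 2, ND 4W 1, ND 4W 3, HFD 16W 2, HFD 16W 3, ND 16W 2 or ND 16W 3 (0.0811 to 0.0958).

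Within the HFD groups, 9.19% of all unigenes were higher at 16 than at 4 weeks and 7.78% lower. Among named unigenes the shares were 18.3% and 11.2%. Of the 43 genes, 9 (20.9%, near the named share) were higher and 1 (2.33%) was lower. The higher ones were HNRNPA1 (log2 fold change 1.19), PABPC1 (1.18), DDX5 (1.002), SF3B2 (0.82), HNRNPUL1 (0.78), HNRNPA2B1 (0.73), HNRNPH1 (0.70), HNRNPF (0.47) and SNRNP200 (0.42), with adjusted p of 0.000332 to 0.0425. The lower one was LSM10 (−1.14, adjusted p = 0.000752). Within the ND groups 0 genes were higher and CPSF4 was lower at 16 weeks (−1.27, adjusted p = 0.049), against 0.211% and 0.169% of all unigenes. An unadjusted limma p under 0.05 was found for 13 of the 43 genes, for 1549 of all 9487 unigenes and for 566 of the 2976 named ones. For SF3B2 the change within ND was −0.36 (adjusted p = 0.151), for PABPC1 0.23 and for LSM10 −0.21. The diet contrasts and these changes over time share libraries.

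**Figure D4:**
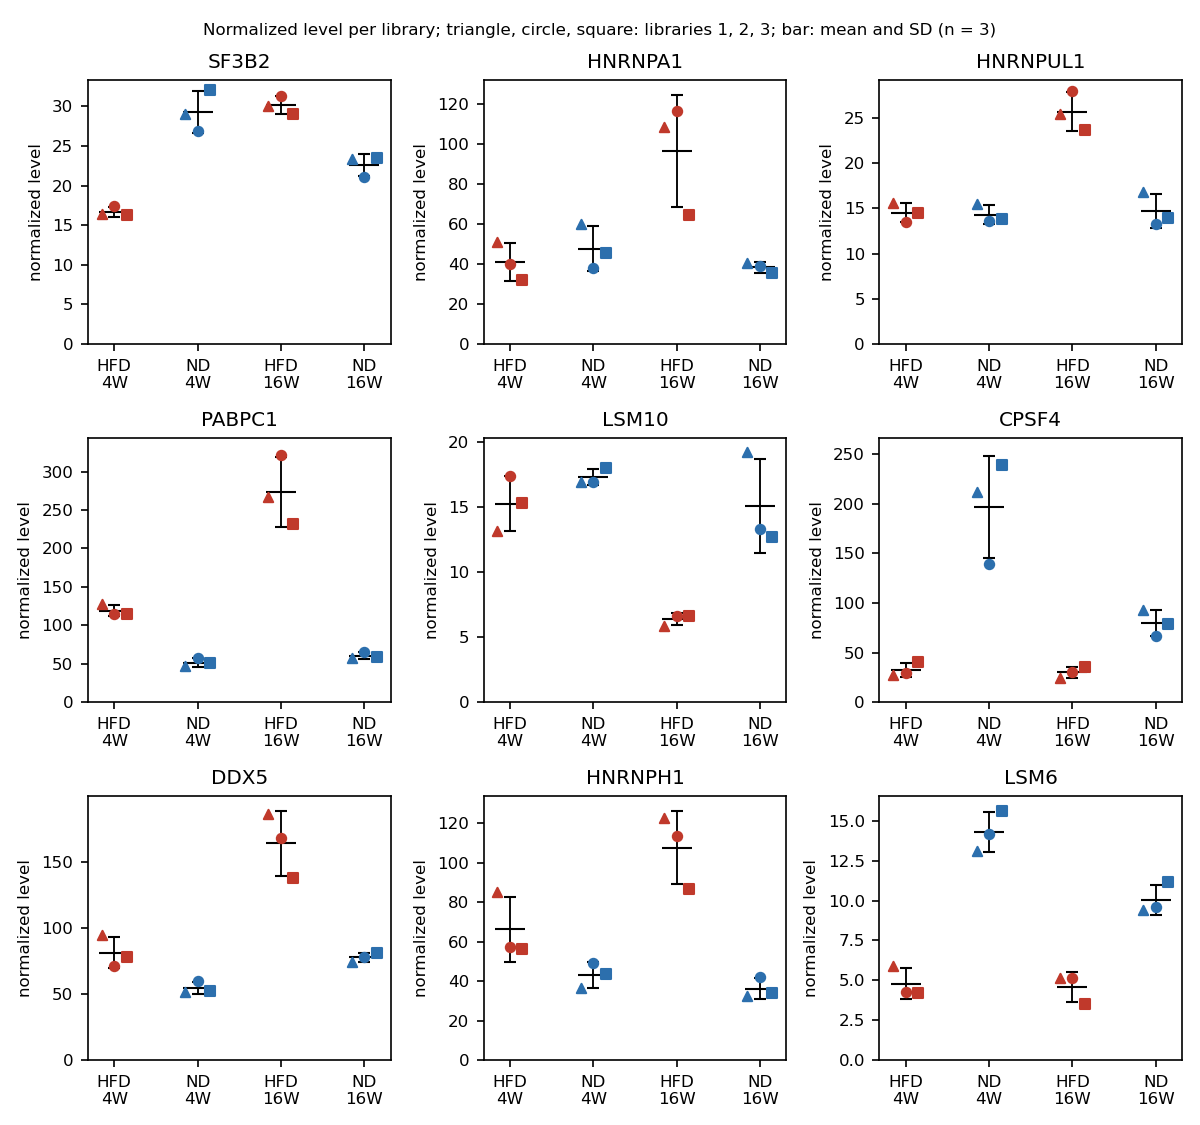
Normalized level in each library of the 6 genes whose diet contrast differed between the times and of DDX5, HNRNPH1 and LSM6, with HFD in red and ND in blue, 4 weeks left of 16 weeks, and bars at the mean with SD (n = 3). SF3B2 is below ND in HFD 4W and above ND in HFD 16W, PABPC1 is above ND at both times, and LSM10 is low in HFD 16W alone.

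Library 1 was the highest of the 3 HFD libraries for 30 of the 43 genes at 4 weeks and for 21 at 16 weeks. Among all unigenes this was so for 38.5% and 39.2%. HNRNPH1 and DDX5 at 4 weeks show it, with 85.4 and 94.6 in HFD 4W 1 above the other HFD 4W libraries. Without the HFD libraries numbered 1, the 4-week calls of DDX5 (adjusted p = 0.0834), DDX41 (0.0588) and HNRNPA0 (0.0546) and the 16-week calls of HNRNPA2B1 (0.0719), DHX9 (0.122) and U2AF2 (0.0721) were lost, and no other call in the diet contrasts was. In the HFD libraries numbered 1 themselves, all 2 higher and 12 lower genes of 4 weeks and all 11 higher and 8 lower genes of 16 weeks lay beyond the 3 ND values of that time in the called direction. CPSF4, for instance, was 26.8 in HFD 4W 1 and 24.2 in HFD 16W 1. The HFD libraries numbered 1 took part in the fits that made these calls. Their position was therefore largely built in, and no conclusion is drawn from it.

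Other settings also ended calls. With each time fitted alone, those of HNRNPA0 (adjusted p = 0.0938), DDX41 (0.0675) and RBM5 (0.0569) at 4 weeks and of DDX50 (0.0539), DHX9 (0.0589), U2AF2 (0.0619), DDX51 (0.0526) and SNRPA1 (0.0688) at 16 weeks were lost as well. With no variance trend DDX41 (0.0864) and RBM5 (0.144) at 4 weeks and DDX50 (0.0789), HNRNPA2B1 (0.0753), DHX9 (0.149), U2AF2 (0.157) and SNRPA1 (0.0689) at 16 weeks were no longer called. A pseudocount of 5 ended the 4-week call of HNRNPA0 (0.0778), and summing by name the 16-week call of DDX50 (0.0755). A term for the HFD libraries numbered 1 ended the 16-week calls of DHX9 (0.0806) and U2AF2 (0.0557), and that of DHX9 was also lost with no filter (0.0569).

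The names also covered 12 further unigenes, of 9 genes. They had a lower mean than the unigene used, and 11 of them were tested. A second U2AF1 unigene (TRINITY_DN31392_c0_g2) was 3.01, 2.54 and 7.00 in HFD 4W against 13.2, 8.81 and 10.8 in ND 4W, and 0.278, 0.169 and 1.55 in HFD 16W against 11.0, 14.9 and 7.76 in ND 16W. It was lower in HFD at both times, with no overlap (−1.28, adjusted p = 0.0459, and −2.92, adjusted p = 0.000154), while the unigene used for U2AF1 (TRINITY_DN31392_c0_g1) was not called. The second HNRNPH1 unigene (TRINITY_DN35803_c0_g4) was 72.1, 65.6 and 56.8 in HFD 16W and 41.3, 61.5 and 56.0 in ND 16W, which overlapped (0.30, adjusted p = 0.393). The second HNRNPF unigene (TRINITY_DN30893_c0_g1) was 60.8, 59.7 and 62.3 in HFD 16W and 41.9, 48.5 and 43.9 in ND 16W (0.44, adjusted p = 0.146). With all unigenes of a name summed, the 16-week change was 0.95 for HNRNPH1 (adjusted p = 0.00615), in place of 1.54, and 0.56 for HNRNPF (adjusted p = 0.0117), in place of 0.83. A small HNRNPF unigene (TRINITY_DN35803_c0_g6) was listed at 0 in all 6 HFD libraries and at 1.26 to 3.00 in ND, and another (TRINITY_DN35803_c0_g5) was at 0 in 4 of the HFD libraries. Both passed the filter on low values through the ND libraries, so a difference was built in and their tests are not given. Whether such unigenes are isoforms, copies or fragments is not stated.

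Some low unigenes split within HFD by the library sets. In the HFD libraries numbered 2 and 3 the set and the diet cannot be told apart. A second PABPC1 unigene (TRINITY_DN393_c0_g1) was 0, 12.8 and 5.496 in HFD 4W and 0, 3.62 and 3.55 in HFD 16W, and at the lowest value in every ND library. A second SRSF4 unigene (TRINITY_DN37750_c0_g1) was 0, 4.66 and 4.62 in HFD 4W and 0, 0.974 and 1.34 in HFD 16W. Both, like PABPC1-B, were detected only in the HFD libraries numbered 2 and 3, the 4 libraries with the fly-style names. The unigene used for PABPC1 did not follow that split.

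**Figure D5:**
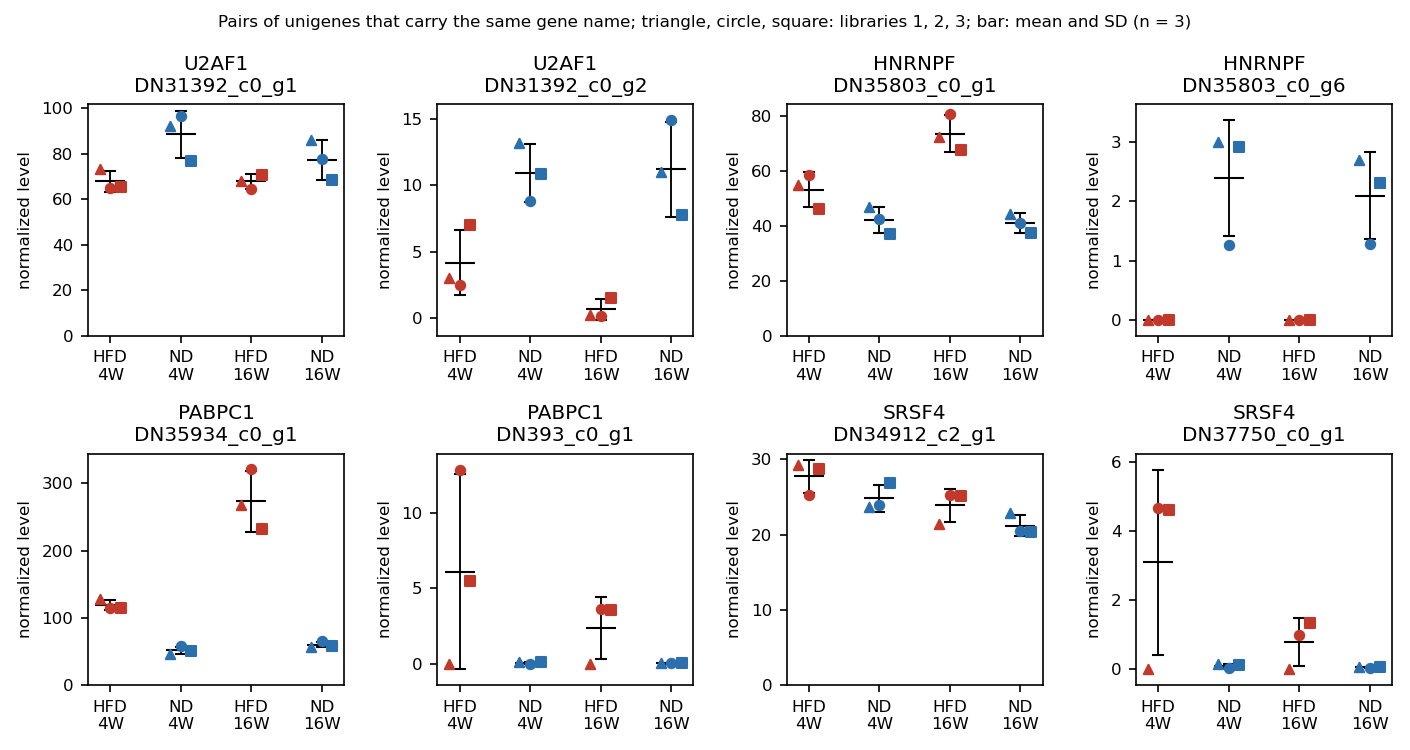
Normalized level per library of unigene pairs that carry the same name (U2AF1, HNRNPF, PABPC1, SRSF4), with the unigene used on the left of each pair, HFD in red, ND in blue, and bars at the mean with SD (n = 3). The second U2AF1 unigene and the small HNRNPF unigene (TRINITY_DN35803_c0_g6) are low in HFD. That HNRNPF unigene passed the filter through the ND libraries, so its difference was built in. The second PABPC1 and SRSF4 unigenes are above the lowest value in the HFD libraries numbered 2 and 3 alone.

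Several genes shared an assembled component with a unigene of another name, where reads could be shared. CPSF4 shared one with BUD31, a splicing factor, which had a change of 0.82 (adjusted p = 0.0259) at 16 weeks, opposite to CPSF4. DDX50 stood with Anxa4, a calcium-binding annexin that was higher at both times (1.11 and 3.00), and HNRNPC with Anp32b, a histone chaperone that was lower at 4 weeks (−1.45, adjusted p = 0.000579), as HNRNPC was. HNRNPF and HNRNPH1 lay in 1 component, so reads of these close paralogs could be exchanged. Their level is uncertain as to the gene.

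Other mRNA processing genes, outside the name rule, were also counted. Of a list of 134 genes, 30 were in the table and 28 were tested, with 0 higher and 5 lower in HFD at 4 weeks and 8 higher and 3 lower at 16 weeks. The shares over all unigenes were 4.89% and 7.22% at 4 weeks and 15.3% and 19.9% at 16 weeks. Over named unigenes they were 7.36% and 11.7% at 4 weeks and 25.1% and 24.7% at 16 weeks. The list's median log2 fold change was −0.18 at 4 weeks and 0.16 at 16 weeks. The 4 largest higher calls at 16 weeks were CSTF3, a cleavage stimulation factor (1.39, adjusted p = 0.0446), FUBP1, a DNA- and RNA-binding protein (0.97, adjusted p = 0.00111), SFPQ, a paraspeckle protein (0.96, adjusted p = 0.0122), and BUD31. The lower ones then were PNN, an exon junction protein, PPIE, a cyclophilin of the spliceosome (−0.66, adjusted p = 0.00418), and ISY1 (−0.56, adjusted p = 0.00508). At 4 weeks the 4 largest lower calls were PTBP1, a repressor of exons, PNN, METTL14 of the RNA methyltransferase (−0.72, adjusted p = 0.00992) and PPIE (−0.66, adjusted p = 0.0111). PTBP1 and PNN were each above the lowest value in 1 HFD library or fewer at each time, and passed the filter through the ND libraries, so a difference was built in and their folds are not given. Both are among the 5 lower calls at 4 weeks, and PNN is among the 3 at 16 weeks, where they are no measure of a diet change. CSTF3 was above the lowest value in 1 ND 16W library (group mean 0.47, against 2.85 in HFD 16W), so its fold depends on the pseudocount. EWSR1, an RNA-binding protein, was the 1 gene of the list whose contrast differed between times (1.13, adjusted p = 0.00689).

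Markers of other cell types moved with the diet in the same libraries. Macrophage markers, 5 of 10 in the table, summed to 112 to 139 in HFD 4W and 11.3 to 21.6 in ND 4W, and to 1497 to 1869.7 in HFD 16W and 32.8 to 48.3 in ND 16W. CD68, GPNMB and ITGAX were higher in HFD at both times, whereas CD5L was 38.2 to 62.8 in HFD 4W and 0.548 to 9.10 in ND 4W, and 0.0356 to 1.89 in HFD 16W and 11.4 to 26.7 in ND 16W. GPNMB alone made up 1263 to 1522 of the sum in HFD 16W. Stellate cell and fibroblast markers, 4 of 10 in the table, summed to 37.1 to 59.8 in HFD 4W and 7.82 to 10.2 in ND 4W, and to 626 to 1375 in HFD 16W and 9.57 to 11.8 in ND 16W. Hepatocyte markers ranged over 10959 to 32375 in HFD 4W and 31918 to 37799 in ND 4W, and over 6309 to 29883.5 in HFD 16W and 31571 to 35434 in ND 16W. ALB made up most of these sums, at the highest value of 28763.5 in every ND library. It was 8090 to 28763.5 in HFD 4W and 5759.6 to 28763.5 in HFD 16W. By limma ALB was not called (adjusted p = 0.875 at 4 weeks, 0.574 at 16 weeks). CPS1 (−1.22, adjusted p = 0.02) and ASS1 (−2.50, adjusted p = 0.0078) were lower at 16 weeks. In bulk liver, fewer cells of a type and less RNA per cell cannot be told apart, and the part of these markers in the higher and lower calls above was not tested. Markers of dividing cells (3 of 5 in the table) summed to 1.27 to 3.85 in HFD 4W and 2.21 to 6.82 in ND 4W, and to 4.19 to 4.44 in HFD 16W and 3.63 to 6.72 in ND 16W. Within that sum, MKI67 was 3.89 to 4.44 in HFD 16W and 0.532 to 0.626 in ND 16W, whereas TOP2A was 0 in HFD 16W and 0.899 to 3.29 in ND 16W, and CDK1 0 to 0.476 in HFD 16W and 2.12 to 2.80 in ND 16W. TOP2A passed the filter through the ND libraries. The red cell marker HBA, 1 of 4, was 445 to 1655 in HFD 4W and 842 to 1522 in ND 4W, and 693 to 4489 in HFD 16W and 445 to 516 in ND 16W. Of 6 endothelial markers VWF was in the table, at no more than 1.29 in any library, and none of 6 cholangiocyte or 7 lymphocyte markers was. No marker in the table was at the lowest value in all 12 libraries.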

How the data were processed

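Liver poly(A) RNA was sequenced in 18 libraries. Per the labels' protocols, reads were assembled with Trinity 2.4.0; the submitters' processing notes also name Salmon and edgeR without saying for which step. The genome build and aligner are "not given in the sources used here". Per unigene, the authors deposited a normalized expression signal, whose abundance unit is not given; depth is unknown, so no counting interval can be given. From it, log2(value + 1) was modelled by limma 3.58.1 (R 4.3.3) with an intensity trend, 1 coefficient for each of 4 groups, over the 9487 unigenes whose mean was at least 1. Benjamini-Hochberg adjusted p under 0.05 was called. Folds on this scale understate changes of low unigenes. The fit was tested on simulated data.

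Names were matched by any case to a table of the gerbil annotation (42 of 45; not CPSF3L, DDX11 or PABPC1-B). Named genes were the called genes with the largest changes whose groups did not overlap, up to 12 in each direction and contrast, the 10 smallest adjusted p for the difference between times, and 2 genes per role; other genes were added to complete a role. Genes and lists were chosen with earlier results of these data known. Alternatives were pseudocounts of 0.1 and 5, no filter or a mean of at least 5, median-ratio rescaling, library and replicate terms, each library left out, other unigene choices, and a variance without trend.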

Additional observations from a re-analysis of the deposited data

Results flagged for a closer look

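The HFD over ND log2 fold change differed between 16 and 4 weeks by the limma test of the difference itself in 6 genes. The difference, 16 minus 4 weeks, was 1.17 for SF3B2, 0.95 for PABPC1, 1.48 for HNRNPA1, 0.75 for HNRNPUL1, −0.93 for LSM10 and 1.19 for CPSF4. SF3B2 was the one of them with calls in opposite directions at the 2 times. For PABPC1, HNRNPA1 and HNRNPUL1 the 16-week contrast was the larger one. For CPSF4 the contrast was nearer 0 at 16 weeks, along with a change within ND. LSM10 was called lower at 16 weeks and not at 4 weeks.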

How the results depend on the processing

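Of 33 calls of the genes given by name in the diet contrasts, 21 held under every alternative in which the gene was tested. Of the 6 differences between times 1 (SF3B2) did. The 21 include the 16-week call of HNRNPA0, whose difference was built in. That call was tested in 15 alternatives, against up to 24 for other calls. The number higher at 4 weeks (2) was 5 of 37 with a mean of at least 5 (15.4% of all unigenes in that fit) and 6 of 42 after rescaling (6.32%). It was 1 without the HFD libraries numbered 1 (7.07%), with each time fitted alone (3.88%), with the replicate block (4.38%) or with no variance trend (4.23%). Leaving out 1 library gave 1 to 4 (2.72% to 6.3% of all unigenes). The number lower at 4 weeks (12) was 9 to 14, of 37 to 54 tested, while the share over all unigenes ranged from 4.79% to 17.6%. The highest share was that with a mean of at least 5, where 12 of 37 were lower. The number higher at 16 weeks (11) was 6 with no trend (14.9% of all unigenes), and 7 to 11 with 1 library left out (11.2% to 16%). With a mean of at least 5 it was 12 of 37, where 27.9% of all unigenes were higher. The number lower at 16 weeks (8) was 5 after rescaling (18.3% of all unigenes), 4 with each time alone (20.2%), and 4 to 8 with 1 library left out (15.2% to 20.2%). With a mean of at least 5 it was 7 of 37, where 34.4% of all unigenes were lower. The number of differences between times (6) was 11 of 37 with a mean of at least 5 (34.6% of all unigenes in that fit) and 10 of 40 over unigenes detected in all 12 libraries (29.4%). It was 1 without the HFD libraries numbered 1 (4.91% of all unigenes), 1 with no trend (8.72%), and 2 to 6 with 1 library left out (6.32% to 9.85%). Each time alone gives none. The cause was not tested. Some values near 0 that were not called changed sign. At 4 weeks HNRNPUL1 was −0.0296 without the HFD libraries numbered 1, −0.0018 with a term for them and −0.0296 to 0.0772 with 1 library left out. RBM39 was −0.0163 without these libraries and −0.0163 to 0.177 with 1 left out. HNRNPA2B1 was −0.0291 without them, −0.0114 with the term and −0.0291 to 0.249 with 1 left out. DHX9 was −0.0482 at 4 weeks with its unigenes summed. RBM5 at 16 weeks was −0.0973 without the HFD libraries numbered 1, −0.0736 with the term and −0.0973 to 0.0964 with 1 library left out. After rescaling LSM10 was 0.00596 and SNRNP200 0.0646 at 4 weeks, and SNRPE 0.0103 at 16 weeks. Same-numbered HFD and ND libraries did not deviate together (correlations of −0.0244 to −2.29e-05 over 6 pairs). Pairs with unlike numbers ran from −0.0376 to 0.0559. No pairing by number was seen, but 3 libraries per group are too few to decide it. The replicate block gave 1 higher and 11 lower at 4 weeks (4.38% and 6.42% of all unigenes). At 16 weeks it gave 9 higher and 8 lower (14.9% and 19.5%), with 6 differences between times (8.6%). It ended the calls of DDX5 (adjusted p = 0.0529) and RBM5 (0.0531) at 4 weeks, of DHX9 (0.0727) and U2AF2 (0.0549) at 16 weeks, and of LSM10 (0.0565) in the difference, where SNRPE was called instead (0.0371). Depth is unknown, and low genes such as HNRNPA0, DDX51, DDX11 and DDX60 are limited by it.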
